A study of Mus musculus with 6 samples.

Results

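The Dlx genes encode homeodomain transcription factors, and 4 of them (Dlx1, Dlx2, Dlx5 and Dlx6) are the ones used in the embryonic ventral forebrain. This account describes 6 gene symbols of that group, the 4 coding genes and the antisense transcripts Dlx1as and Dlx6os1, which were found in the table of 34745 genes by their symbols. The symbols matched 7 rows, because Dlx6os1 stands on 2 identifiers. The libraries were made from the medial ganglionic eminence (MGE), a swelling of the ventral forebrain that produces many cortical interneurons, of mouse embryos at day 12.5. There were 3 wild type libraries, from littermate controls, and 3 libraries from Sp9-/- embryos, called Sp9 null here, which lack the zinc finger transcription factor gene Sp9. Both groups had a mixed background of the strains CD1, 129S6 and C57BL/6J. The labels do not say whether a library holds 1 embryo or several, or whether replicates came from separate litters, so p-values measure only how far these libraries vary, part of which may be technical.

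The Dlx genes lie in pairs that point towards each other, and the genes of a pair share enhancers in the DNA between and around them. In the ganglionic eminences Dlx1 and Dlx2 come on first, in dividing progenitors, and DLX1 and DLX2 proteins act through the enhancers of the other pair, so that Dlx5 and Dlx6 follow in more mature cells. The DLX proteins are known for promoting the GABAergic fate and the migration of interneurons. Dlx6os1, also called Evf2, is a long noncoding RNA that crosses the Dlx5/6 enhancers and is known to act on both those genes and distant ones of the same chromosome. Dlx1as is transcribed across Dlx1 from the opposite strand and is known to restrain Dlx1 in the brain.

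The coding genes are related in sequence, and the stretch in which they are most alike is shown because it marks them as 1 family and shows how far their reads can be told apart. Each line is the 180-base in-frame window of the coding sequence that was most similar across the 4 genes, the length of a homeobox, taken from the transcripts of GENCODE M21 with Dlx1 as the anchor. Capitals mark the 108 bases that are identical in all 4 genes.
Dlx1: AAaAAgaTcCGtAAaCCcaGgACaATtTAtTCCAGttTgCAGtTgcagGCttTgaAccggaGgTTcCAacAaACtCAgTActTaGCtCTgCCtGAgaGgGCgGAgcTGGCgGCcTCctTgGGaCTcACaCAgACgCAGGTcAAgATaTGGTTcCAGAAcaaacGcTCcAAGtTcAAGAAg
Dlx2: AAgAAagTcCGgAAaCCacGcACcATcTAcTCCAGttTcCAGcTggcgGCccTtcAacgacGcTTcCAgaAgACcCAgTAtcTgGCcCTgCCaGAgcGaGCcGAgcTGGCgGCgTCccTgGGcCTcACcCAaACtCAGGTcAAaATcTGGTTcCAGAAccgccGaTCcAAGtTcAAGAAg
Dlx5: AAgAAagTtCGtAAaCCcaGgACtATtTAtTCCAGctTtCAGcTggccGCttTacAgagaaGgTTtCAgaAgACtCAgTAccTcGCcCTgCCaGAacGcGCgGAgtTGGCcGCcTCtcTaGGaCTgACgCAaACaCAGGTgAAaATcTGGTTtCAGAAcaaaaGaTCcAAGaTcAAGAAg
Dlx6: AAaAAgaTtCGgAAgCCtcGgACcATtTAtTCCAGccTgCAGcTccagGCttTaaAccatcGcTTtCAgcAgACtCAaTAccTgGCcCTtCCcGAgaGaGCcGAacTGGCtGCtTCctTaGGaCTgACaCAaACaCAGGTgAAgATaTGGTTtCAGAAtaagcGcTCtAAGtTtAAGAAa
Across the pairs, identity in this window was 77.8% between Dlx1 and Dlx6, 77.2% between Dlx2 and Dlx5, 76.1% between Dlx1 and Dlx5 and 71.7% between Dlx2 and Dlx6. Within a pair it was 74.4% for Dlx1 and Dlx2 and 73.9% for Dlx5 and Dlx6, inside the range across pairs. The longest run of bases shared by any transcripts of 2 of these genes was between 12 and 23 bases. The labels give no read length.

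Dlx1 (ENSMUSG00000041911, GRCm38 chromosome 2, 71528113 to 71533981, plus strand) and Dlx2 (ENSMUSG00000023391, 71543408 to 71546754, minus strand) share a chromosome with Sp9. Dlx2 lies 1.725 Mb from it and Dlx1 1.738 Mb. Whether the genotypes differed in strain DNA near Sp9, on the mixed background, was not tested. Dlx1as (ENSMUSG00000084946, chromosome 2, 71516454 to 71537891, minus strand) runs across Dlx1 and overlaps the near end of Metap1d, a mitochondrial methionine aminopeptidase gene. Dlx5 (ENSMUSG00000029755, 6877805 to 6882085, minus strand) and Dlx6 (ENSMUSG00000029754, 6863334 to 6868568, plus strand) are on chromosome 6. Dlx6os1 (ENSMUSG00000090063, 6820189 to 6871592, minus strand) has the whole of Dlx6 inside its bounds. In GENCODE M21, 335 exonic bases are shared by Dlx1as and Dlx1, which is 20.6% of the exonic bases of Dlx1as and 6.21% of those of Dlx1. Exons of Dlx1as share 0 bases with exons of Metap1d, and those of Dlx6os1 share 0 with Dlx6. Dlx6os1 does share 491 exonic bases, 9.49% of its own, with other annotated genes. These are 207 with Gm27905, 180 with Gm27699 and 104 with its second identifier, and how reads there were assigned was not tested. Nothing in the labels says whether strand was kept, so reads from the part shared by Dlx1 and Dlx1as cannot be told apart.

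The deposited library totals were 6826447 to 10979280 counts. Levels are given as CPM, the counts of a gene for every 1000000 in its library. For Sp9 the wild type libraries (replicates 1, 2 and 3 in this order, here and throughout) gave 203, 247 and 189 CPM and the null libraries 13.0, 10.6 and 12.5 CPM, so the targeted gene matched the labels. All 4 MGE markers looked at were expressed, with Nkx2-1 at 848 CPM and Lhx6 at 521 CPM on average in wild type. They summed to 1599, 1561 and 1542 CPM in wild type, above the 1514, 1367 and 1534 CPM of the null libraries. The fit with the replicate block described below called 2.22% of all tested genes higher and 1.78% lower. In it, 2 of the 4 MGE markers fell, Lhx6 and Nkx6-2 (from 14.0 ± 2.58 to 8.61 ± 1.86 CPM, SD, n = 3). The Nkx6-2 call was kept with only 1 of the 3 replicate numbers left out, and DESeq2 with the block did not make it (adjusted p = 0.356). Nkx2-1 went the other way, to 926 CPM on average in null libraries, and neither it nor Lhx8 was called. Replicate 2 stood apart in both genotypes: the summed level of 6 markers of the pallium, the neighbouring dorsal tissue, was down to 1.37 CPM (wild type) and 0.638 CPM (null) in these, while replicates 1 and 3 gave 16.4 and 22.7 CPM in wild type against 25.6 and 45.3 CPM in null libraries. Of the 2 pallial markers that could be tested, Tbr1 rose in the fit with the block (0.81 on the log2 scale, adjusted p = 0.0238 by edgeR). Its groups overlapped, the call was kept with 2 of the 3 replicate numbers left out, and DESeq2 with the block did not make it. The 6 markers of craniofacial mesenchyme, another tissue that uses Dlx genes, summed to between 13.4 and 25.5 CPM, nearly all from Prrx1, and Hand2 had 0 counts in all libraries. The 5 microglial markers summed to 26.9 to 32.2 CPM in wild type, against 7.32 to 12.01 CPM in null libraries, and 4 of them fell in the blocked fit. Cx3cr1, P2ry12 and Csf1r kept these calls with each replicate number left out in turn. Aif1 kept its call with only 1 of the 3 left out, and DESeq2 with the block did not make it (adjusted p = 0.607). The 6 markers of the lateral ganglionic eminence (LGE), the adjoining Dlx-expressing domain, summed to 338 to 375 CPM in wild type, below the 399 to 432 CPM of null libraries, and 4 of them rose in the blocked fit. Each of these, Foxp1, Six3, Zfp521 and Meis2, kept its call with only 1 of the 3 replicate numbers left out. DESeq2 with the block called none of them (adjusted p of 0.0930 to 0.675). Ebf1 was lower (25.7 CPM in wild type, 20.0 CPM in null) and Isl1 similar (43.1 and 44.9 CPM), and neither was called. Erythroid markers summed to 618 to 987 CPM, endothelial markers to 73.2 to 84.4 CPM and hypothalamic markers to at most 5.62 CPM, with overlapping genotypes, and 2 of the 3 erythroid markers rose in the blocked fit. Mitochondrial genes took 2.20% to 2.28% of counts in wild type and 2.32%, 3.43% and 3.41% in the null libraries. The part of these values in the results below was not tested.

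Dlx1, the member of the family with most counts, gave 939, 975 and 854 CPM in the wild type libraries, while the null libraries gave 1504, 1514 and 1389 CPM. All null libraries lay above all wild type libraries. The means were 923 ± 62.6 and 1469 ± 69.8 CPM (SD, n = 3 each), so the null mean was 159% of the wild type mean. Null over wild type, the log2 fold change came to 0.69 (SE 0.09, edgeR quasi-likelihood test, adjusted p = 0.0340 over 14929 genes). Dlx1 was thus called higher, in a fit that called 22 genes, 0.147% of those tested, 7 of them higher (0.0469%) and 15 lower (0.1%). The call was lost without wild type replicate 1, 2 or 3 or without null replicate 1 or 3, with adjusted p of 0.316, 0.0874, 0.295, 0.139 and 0.101, while the log2 fold change stayed between 0.64 and 0.74. In bulk tissue, more cells expressing a gene and more of its RNA per cell cannot be told apart.

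Both genotypes carry replicate numbers 1 to 3, and a fit with the number as a block, whose basis stands with the processing, called 597 genes (4%), of which 332 were higher (2.22%) and 265 lower (1.78%). In that fit 4 of the 6 Dlx transcripts rose and 0 fell, namely Dlx1, Dlx1as, Dlx2 and Dlx6os1. For Dlx1 it gave the same 0.69 with a smaller SE of 0.06 (edgeR adjusted p = 1.42e-10), and this call held whichever number was left out. Without the block 1 rose and 0 fell. These same 4 transcripts were higher in every null library than in any wild type library, as were 4.95% of all tested genes, with 8.06% lower in the same way. By DESeq2, Dlx1 and Dlx1as passed without the block, where 0.481% of genes did (0.203% higher and 0.278% lower), and the same 4 as by edgeR passed with it, where 0.809% did (0.449% higher and 0.36% lower). The median log2 fold change of the 6 was 0.32 without and 0.31 with the block, against -0.005 and -0.007 over all tested genes. The members were chosen with earlier results of these data known.

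**Figure D1:**
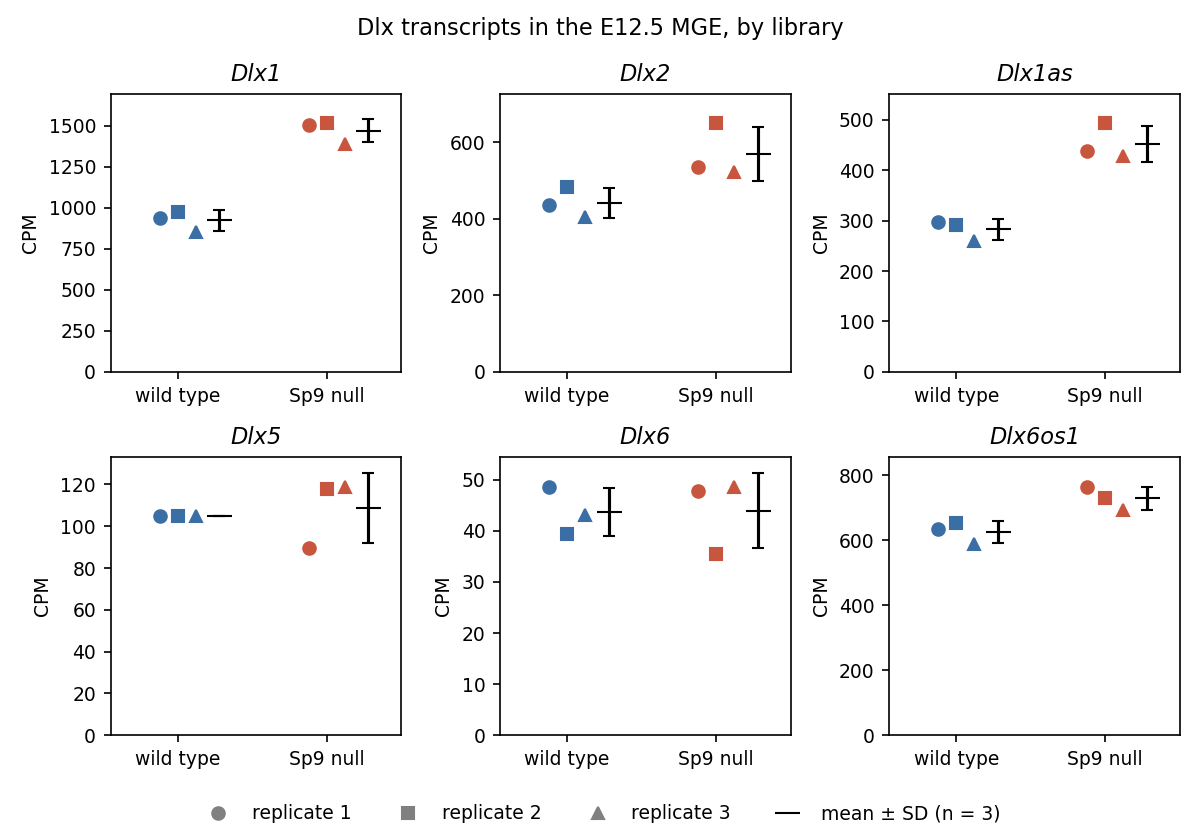
CPM of each Dlx transcript in every library, by genotype, with the mean ± SD (n = 3) beside the points and replicate numbers shown by marker shape. The groups are apart for Dlx1, Dlx2, Dlx1as and Dlx6os1 and overlap for Dlx5 and Dlx6.

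Dlx2, the partner of Dlx1 and like it active in progenitors, gave 436, 482 and 406 CPM in wild type libraries against 537, 649 and 522 CPM in null ones. Every null value was above every wild type value, though null replicate 3 and wild type replicate 2 were close. Its difference of 0.39 on the log2 scale (SE 0.12, adjusted p = 0.635 by edgeR) did not pass without the block. With it, Dlx2 rose, with the same 0.39 (SE 0.06, adjusted p = 3.91e-05), and the call was kept with each replicate number left out in turn. Without replicate 2 of both genotypes it also passed in the fit without the block, at 0.34 (adjusted p = 0.0463), where 0.591% of genes were called and 0.252% were called higher.

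The antisense transcript Dlx1as gave 296, 291 and 259 CPM in wild type libraries, and 437, 493 and 427 CPM in the null ones. The groups were well apart. Its log2 fold change of 0.70 (SE 0.10) nearly equalled that of Dlx1, and at edgeR adjusted p = 0.0511 it missed the threshold. With the block Dlx1as rose by 0.70 (SE 0.06, adjusted p = 1.02e-10). Without a filter on low counts it passed as well (adjusted p = 0.00390, where 0.282% of genes passed and 0.091% were higher). So it did by DESeq2 without the block (6.65e-07), and by edgeR without null replicate 2 (0.0266, where 0.223% passed and 0.0787% were higher). It did not pass with RLE scaling (0.0517), by limma (0.0578 and 0.0599) or with any of the other 5 libraries left out (0.136 to 0.346), so that 9 of 17 alternatives called it.

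Dlx5, which acts in differentiating neurons, gave 105 CPM in each of the 3 wild type libraries, against 89.5, 118 and 119 CPM in the null ones. The null libraries lay on both sides of the wild type ones, with null replicate 1 below and the others above. The 3 wild type values had an SD of 0.0192 CPM, far under the 3.22 CPM that counting error alone gives, so that SD understates the error. Null over wild type it differed by 0.08 on the log2 scale (SE 0.12, adjusted p = 0.969 by edgeR), and the interval of ± 2 SE ran from -0.17 to 0.32. Without null replicate 1, the library with fewest counts, it was 0.21 (adjusted p = 0.583).

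Dlx6, the least abundant of the coding genes, gave 48.7, 39.4 and 43.1 CPM in wild type libraries against 47.8, 35.4 and 48.6 CPM in null ones. The groups overlapped, and in both genotypes replicate 2 was lowest. It differed by 0.02 on the log2 scale (SE 0.14, adjusted p = 0.997 by edgeR), with an interval of ± 2 SE from -0.25 to 0.30. With the block the interval was -0.16 to 0.20. An increase as large as that of Dlx1 lay outside these intervals for Dlx5 and Dlx6, while one as small as that of Dlx6os1 lay within those of the fit without the block.

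Dlx6os1, the noncoding RNA over the Dlx5/6 enhancers, gave 633, 653 and 588 CPM in wild type libraries against 765, 729 and 692 CPM in null ones. All null libraries were above all wild type ones. Its difference, 0.24 on the log2 scale, did not pass (SE 0.08, adjusted p = 0.706 by edgeR), and with the block Dlx6os1 rose by 0.24 (SE 0.06, adjusted p = 0.0117). That call was lost without replicate 2 (0.180) and without replicate 3 (0.260). The second identifier with this symbol (ENSMUSG00000098326), a short RNA gene overlapping the start of the longer one, had 0, 0 and 0 counts in wild type and 2, 1 and 0 in null replicates and did not enter the fit. Dlx6os2, a further transcript overlapping Dlx6 from the other strand, averaged 18.5 ± 2.16 and 17.3 ± 3.02 CPM (wild type, then null, SD, n = 3) and did not pass.

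**Figure D2:**
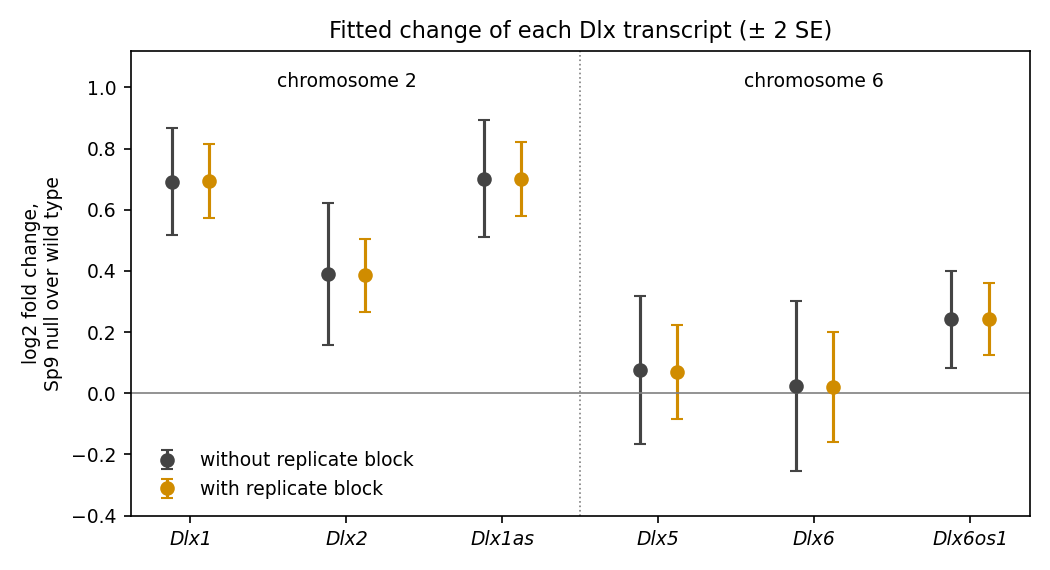
Fitted log2 fold change of Sp9 null over wild type for each Dlx transcript, with ± 2 SE, from the edgeR fits without and with the replicate block. The 3 transcripts of chromosome 2 lie at 0.39 to 0.70, Dlx6os1 at 0.24, and Dlx5 and Dlx6 near 0.

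The pairs were compared within each library, where library size and scaling cancel. The mean log2 CPM of Dlx1 and Dlx2 exceeded that of Dlx5 and Dlx6 by 3.16, 3.41 and 3.13 in wild type replicates 1, 2 and 3, and by 3.78, 3.94 and 3.49 in the null replicates. As ratios of geometric means these are 8.95, 10.7 and 8.76 against 13.7, 15.4 and 11.2, so the groups did not overlap. The ratio was 1.41-fold higher in null libraries, a log2 difference of 0.50 with a pooled SD of 0.20 (n = 3 each). An exact permutation test, two-sided, could reach no p below 0.1 with 3 against 3 libraries and reached it here, with p = 0.25 adjusted over the 5 ratios computed. Within replicate numbers 1, 2 and 3 the log2 difference was 0.62, 0.53 and 0.35, and from summed counts it was 0.55.

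Within the chromosome 2 pair the balance also differed. Dlx1 counts were 2.15, 2.02 and 2.102 times those of Dlx2 in wild type replicates 1, 2 and 3 and 2.80, 2.33 and 2.66 times in the null replicates, again without overlap. The log2 difference was 0.31 (pooled SD 0.10, exact two-sided permutation p = 0.1, adjusted p = 0.25). Dlx5 counts were 2.16, 2.67 and 2.44 times those of Dlx6 in wild type and 1.87, 3.32 and 2.45 times in null libraries, which surround the wild type range (log2 difference 0.04, exact p = 0.9).

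The ratio of Dlx1as to Dlx1 was 0.315, 0.299 and 0.304 in wild type replicates 1, 2 and 3 and 0.290, 0.325 and 0.307 in the null replicates. The groups overlapped, with a log2 difference of 0.007 (pooled SD 0.06, exact permutation p = 0.9). How reads in the exonic bases that these transcripts share were assigned was not tested. Dlx6os1 had 13.0, 16.6 and 13.7 times the counts of Dlx6 in wild type and 16.0, 20.6 and 14.2 times in null libraries. That difference, 0.22 on the log2 scale, was within the spread (pooled SD 0.23, exact permutation p = 0.3).

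**Figure D3:**
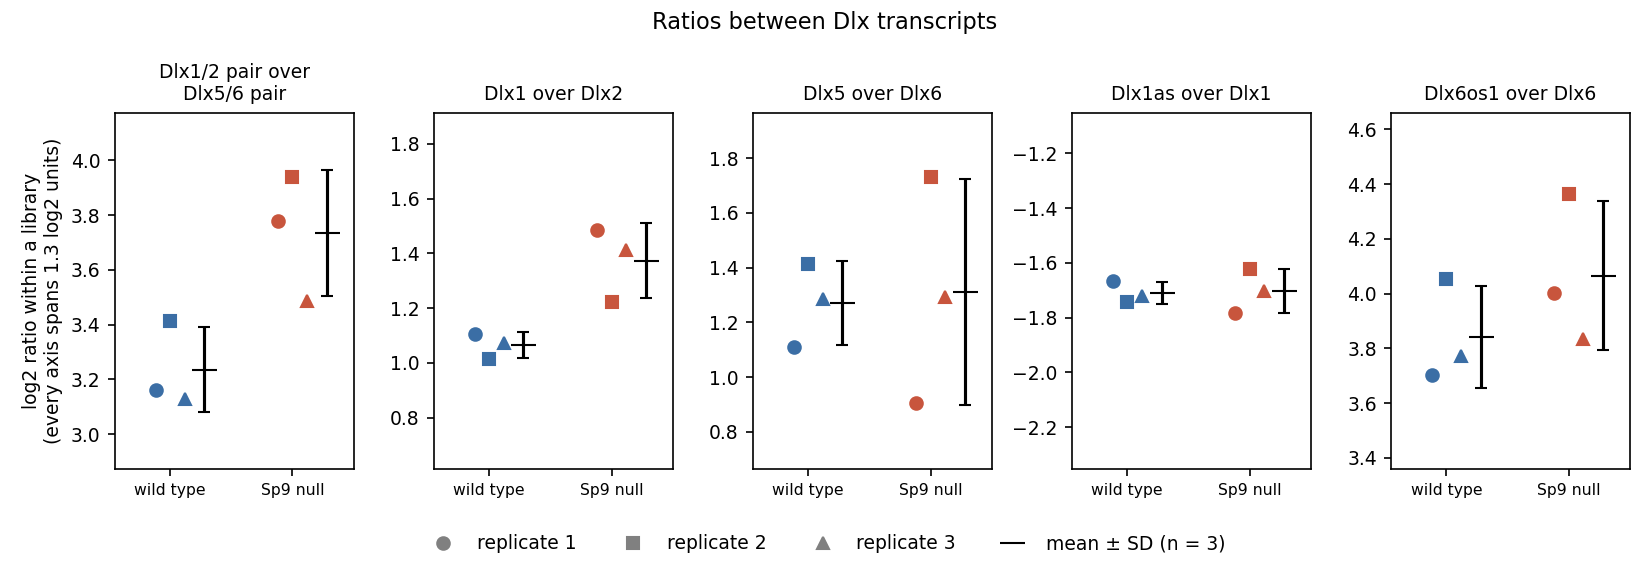
Log2 ratios between Dlx transcripts within each library, by genotype, with the mean ± SD (n = 3). Each axis spans 1.3 log2 units. The ratio of the Dlx1/2 pair to the Dlx5/6 pair and that of Dlx1 to Dlx2 are higher in all 3 null libraries, and the other 3 ratios overlap.

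The make-up of the coding Dlx counts also differed. Together the 4 coding genes took 1529, 1602 and 1408 CPM of the wild type libraries, against 2178, 2317 and 2078 CPM of the null ones. Dlx1 made up 60.6% to 61.4% of their counts in wild type and 65.4% to 69.1% in null libraries. The share of Dlx2 was 28.5% to 30.1% and 24.6% to 28.03%. Dlx5 made up 6.55% to 7.46% and 4.11% to 5.73%, and Dlx6 2.46% to 3.18% and 1.53% to 2.34%. Each of these shares was separate between the genotypes, including those of Dlx5 and Dlx6, whose own levels overlapped. As the shares are parts of the same total, a higher share of Dlx1 brings lower shares of the others. The share of Dlx2 was lower although its own level was higher in all null libraries.

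Levels of different genes can be compared only per length, and here the length matters. The lengths behind the deposited FPKM values were 10601 bases for Dlx1, 3099 for Dlx2 and 2333 for Dlx1as. These equal the exon lengths summed over all transcripts in GENCODE M21, so exons used by several transcripts enter several times, and for Dlx1 the length exceeds the 5869 bases the gene spans. The merged exons of these genes cover 5396, 2855 and 1630 bases. For Dlx5, Dlx6 and Dlx6os1 the FPKM lengths were 3454, 3104 and 9054 bases. These were below the summed exon lengths of 4138, 4275 and 9578 bases, so that rule does not cover all 6. On the FPKM scale the wild type order was Dlx2 (142 ± 12.4), Dlx1as (121 ± 8.61), Dlx1 (87.0 ± 5.91), Dlx6os1 (69.0 ± 3.69), Dlx5 (30.4 ± 0.006) and Dlx6 (14.1 ± 1.502), with no overlap between neighbours (SD, n = 3). Per kilobase of merged exons Dlx1as (173 ± 12.3 CPM per kilobase) and Dlx1 (171 ± 11.6) led and could not be separated. Dlx2 (155 ± 13.5) was below Dlx1 in each of the 3 libraries although their ranges overlapped, and Dlx6os1 (121 ± 6.46), Dlx5 (46.4 ± 0.008) and Dlx6 (18.4 ± 1.96) followed without overlap. The order of Dlx1 and Dlx2 thus depended on the length used, while Dlx5 and Dlx6 were lowest on both scales. In null libraries the order per kilobase of merged exons was the same, with Dlx1 (272 ± 12.9) clear of Dlx2 (199 ± 24.4). On the FPKM scale it changed, with Dlx1as (194 ± 15.2) above Dlx2 (184 ± 22.5) in each of the 3 null libraries, although their ranges overlapped.

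**Figure D4:**
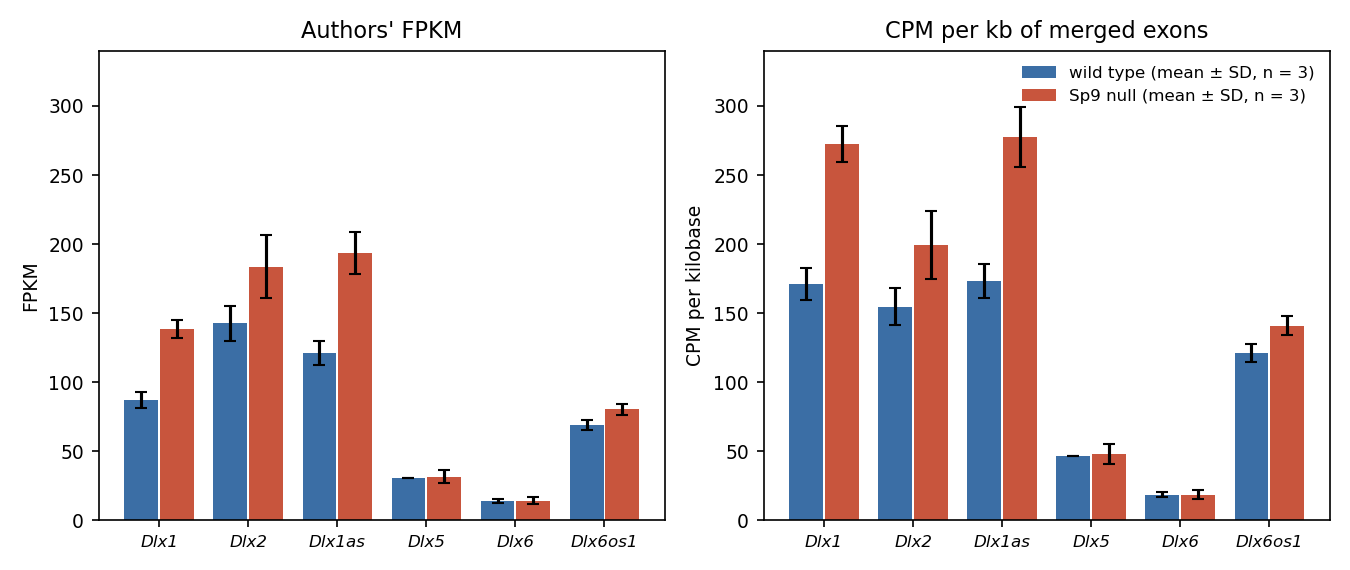
Level of each Dlx transcript per length on 2 scales, the authors' FPKM and CPM per kilobase of merged exons, as mean ± SD (n = 3) by genotype. Dlx1 stands below Dlx2 on the first scale and above it on the second.

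Genes near each pair were looked at as well. Of 38 tested genes with a body within 2 Mb of Dlx1 or Dlx2, Metap1d was higher and Sp9 lower without the block, and the blocked fit called 6 higher and 2 lower (21.1%, against 4% of all tested genes). The 2 lower were Gad1 and Sp9 itself, whose call follows from the genotype and is counted in the 21.1%. Of 20 tested genes within 2 Mb of Dlx5 or Dlx6, Dlx6os2 among them, 0 were called in either fit. With 4% of all tested genes called in the blocked fit, 0 of 20 is near the overall share. The nearest tested gene to the left of Dlx1 is Metap1d, which averaged 39.0 ± 4.11 CPM in wild type against 102 ± 2.28 CPM in null libraries (SD, n = 3). The nearest to the right of Dlx2, the integrin gene Itga6, was at 46.3 ± 3.53 and 53.8 ± 0.519 CPM and did not pass. Beside the chromosome 6 pair, Shfm1 was at 41.7 ± 6.27 and 38.9 ± 4.004 CPM and Sdhaf3, an assembly factor gene of succinate dehydrogenase, at 7.84 ± 1.33 and 9.65 ± 1.96 CPM, and neither passed.

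The other genes near Dlx1 and Dlx2 that rose with the block were Pdk1, a pyruvate dehydrogenase kinase gene, from 4.69 ± 1.79 to 13.9 ± 2.81 CPM, and Zak, a kinase gene of the MAP kinase cascade, from 19.4 ± 1.10 to 32.8 ± 7.86 CPM. Dcaf17, from 29.8 ± 1.16 to 40.3 ± 1.16 CPM, Ppig, a peptidyl-prolyl isomerase gene, and Ola1, an ATPase gene, rose as well. Gad1, which encodes the main GABA-synthesising enzyme and lies 0.926 Mb to the left, fell from 237 ± 24.9 to 136 ± 32.0 CPM. Metap1d, Pdk1, Zak and Gad1 kept their blocked calls with each replicate number left out in turn. Dcaf17 kept its call in 2 of these 3 cases, Ppig in 1 and Ola1 in 0. Within this region the called changes therefore ran in both directions.

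**Figure D5:**
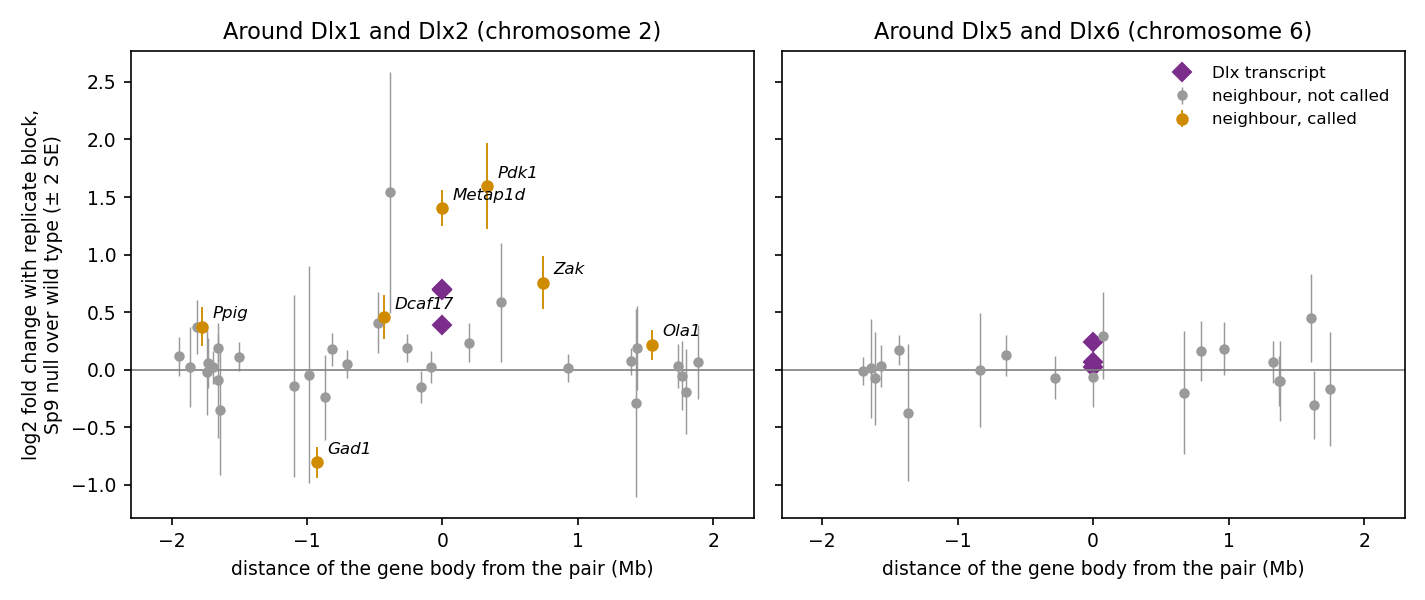
Log2 fold change with the replicate block (± 2 SE) of each tested gene within 2 Mb of the Dlx1/2 pair and of the Dlx5/6 pair, against the distance of its body from the pair, with Sp9 itself left out. The Dlx transcripts are drawn at distance 0 without error bars. Called neighbours, named in the plot, occur at the chromosome 2 pair. At the chromosome 6 pair 0 of 20 were called, near the 4% called over all tested genes.

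Start regions are shown for 2 transcripts that were higher in all null libraries, Dlx2 of chromosome 2 and Dlx6os1 of chromosome 6. Each is the 250 bases before the RefSeq start on GRCm38.p6, written along the gene's strand, with capitals for matches on either strand to GGGCGG, the GC box bound by Sp proteins, or TAATTA, a core bound by homeodomains. The motifs do not overlap each other in these windows.
Dlx2 (chr2:71546755-71547004, minus strand): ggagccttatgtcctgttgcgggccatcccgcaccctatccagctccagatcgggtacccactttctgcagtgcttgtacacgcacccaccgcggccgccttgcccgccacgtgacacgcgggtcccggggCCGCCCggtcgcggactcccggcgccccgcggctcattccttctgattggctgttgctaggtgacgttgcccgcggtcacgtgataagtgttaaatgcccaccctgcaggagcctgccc
Dlx6os1 (chr6:6869534-6869783, minus strand): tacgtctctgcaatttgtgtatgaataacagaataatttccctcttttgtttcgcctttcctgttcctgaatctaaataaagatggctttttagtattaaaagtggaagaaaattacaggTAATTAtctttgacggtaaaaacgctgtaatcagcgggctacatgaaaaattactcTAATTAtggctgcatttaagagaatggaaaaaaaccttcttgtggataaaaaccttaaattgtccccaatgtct
The Dlx2 window was 66.4% G and C with 1 GGGCGG match and 0 TAATTA matches. That of Dlx6os1 was 33.2% G and C with 0 and 2 matches. It lies inside the bounds given above for that gene, not before its outer start. A further RefSeq start of Dlx6os1 had 1 TAATTA match. The bases after that start were found in no GENCODE M21 transcript of Dlx6os1. The corresponding window of Dlx1, which lies inside an exon of a longer Dlx1 transcript, was 68.0% G and C and held 0 matches to either motif. GGGCGG was found in 32.7% and TAATTA in 4.84% of 32851 such mouse windows. A match describes the letters and is not evidence of binding.

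Genes of the Dlx network were taken from lists of regulators, targets and partners. Of the other family members and relatives, Dlx3 had at most 2 counts in any library and Dlx4 had 0 in all 6, which allows up to 0.273 to 0.439 CPM per library. Of 12 genes that act upstream of the Dlx genes in the subpallium, the fit without the block called 0. The blocked fit called 1 higher and 0 lower, against 2.22% and 1.78% of all tested genes. That gene was Gli3, a transcription factor of the hedgehog pathway (from 73.1 ± 12.2 to 88.0 ± 17.9 CPM). Its groups overlapped, the call was kept with only 1 of the 3 replicate numbers left out, and DESeq2 with the block did not make it (adjusted p = 0.367). Gsx2, a homeobox gene of ventral progenitors, averaged 40.4 CPM (wild type) and 37.3 CPM (null) and did not pass. The median log2 fold change of this list was -0.07.

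Of 26 genes known as targets of DLX1 and DLX2 or acting downstream of them, the fit without the block called 0. In the blocked fit 5 rose and 6 fell, where 2.22% of all tested genes were called higher and 1.78% lower. The median log2 fold change was -0.04 in the first and -0.05 in the second. Those that rose were Pak3, a kinase gene that DLX proteins are known to hold down, Gad2, Cux2, Six3 and Robo1. Pak3 went from 134 ± 13.6 to 168 ± 18.7 CPM (SD, n = 3), which is 0.35 on the log2 scale with the block (SE 0.06, adjusted p = 0.000238 by edgeR). This call held whichever replicate number was left out. Among the genes that fell were Gad1, Slc32a1, which encodes the vesicular GABA transporter, Lhx6, Maf and Ackr3. Gad1, Gad2 and Lhx6 kept these calls with each replicate number left out in turn, and the others named here, apart from Pak3, lost theirs in at least 1 of the 3 cases. Genes that DLX proteins are known to activate were thus called in both directions, with Gad2 higher and Gad1 lower, in the same libraries in which Dlx1 and Dlx2 were higher.

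Of 9 tested partners of DLX proteins or of Evf2 and reported Evf2 targets, the fit without the block called 0. In the blocked fit, which called 2.22% of all tested genes higher, 2 of these rose. Among them was Meis2, a homeodomain cofactor gene, from 173 ± 10.1 to 203 ± 34.3 CPM (SD, n = 3), a call kept with only 1 of the 3 numbers left out. Rbm28 and Lsm8, chromosome 6 genes linked to Evf2, averaged 82.5 and 43.1 CPM in wild type, against 79.6 and 38.03 CPM in null libraries, and did not pass. Akr1b8, a further one, averaged 0.611 and 1.13 CPM and did not enter the fit.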

How the data were processed

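RNA-seq of the MGE was analysed for 3 wild type and 3 Sp9 null libraries, grouped by the labels. Per the file headers, the authors deposited read counts and FPKM for each gene in each library. TopHat, Cufflinks 2.1.1 and the build GRCm38.p4 are listed, without roles, in the submitters' processing notes. No source used here gives the counter or strandedness. Deposited FPKM equalled count over 1 length and library total for 21180 of 21180 genes counted in 2 or more libraries (relative tolerance 0.001). There were 0 unused columns of sample values. Depth ran from 6826447 to 10979280 counts, and a floor of 3 counts is 0.273 to 0.439 CPM, which covers counting error only.

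Counts were tested with edgeR 4.0.16 (quasi-likelihood, TMM, default filter, robust, genotype only) in R 4.3.3 over all 14929 genes that passed the filter. The tests were two-sided, with Benjamini-Hochberg adjustment and a threshold of 0.05. An SE is the log2 fold change divided by the root of F. Replicate numbers were taken to pair the samples because deviations from the genotype means correlated by 0.336, 0.729 and 0.535 within numbers 1, 2 and 3, all over 0.1. Numbers 1 and 3 were not told apart (0.354 and 0.230 across them). What a number marks is absent from the labels, so blocked calls rest on this. Alternatives used DESeq2 1.42.0, limma 3.58.1 on log2(FPKM + 1) or log2(FPKM + 0.1), RLE scaling, no filter, and left-out libraries. The edgeR and DESeq2 fits, each with and without the block, and limma with 1 added before the log2 were tried on simulated counts. Those counts held no replicate effect, and the other alternatives were not tried on them. Ratios were tested by exact permutation in Python 3.11.15.

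The members and gene lists were chosen with earlier results of these data known. Named genes are the members, list genes and neighbours called in either edgeR fit, the nearest tested neighbours, and the 3 genes most correlated with each pair. Some genes that this rule names are not reported here. Other genes named without passing were chosen after their values were seen. Merged exon lengths and overlaps come from GENCODE M21 (GRCm38), in which 80.8% of 34267 shared identifiers have the table's start and end. Promoter windows are RefSeq's.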

Additional observations from a re-analysis of the deposited data

How the results depend on the processing

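The count of Dlx transcripts called higher, 1 without the block, was 4 with the replicate block by edgeR and by DESeq2, 2 by DESeq2 without the block and without the filter on low counts, 0 to 2 with 1 library left out, 3 to 4 with the block and 1 replicate number left out, and 3 without replicate 2 of both genotypes, a setting added after the data were seen. The count lower was 0 in all settings run. Called neighbours of Dlx1 and Dlx2, 2 without the block, were 8 and 6 with the replicate block by edgeR and DESeq2, 5 by DESeq2 without it, 1 within 1 Mb, 1 to 2 with 1 library left out (1 without wild type replicate 1), 5 to 12 with the block and a number left out, and 4 without replicate 2 of both genotypes. Sp9 itself was among the neighbours looked at, except within 1 Mb. The log2 fold changes of Dlx1, Dlx2, Dlx1as and Dlx6os1 stayed above 0 in all 17 alternatives. That of Dlx5 was -0.0039 with the block without replicate 3. That of Dlx6 was -0.0014 and -0.0020 by limma with pseudocounts 1 and 0.1, -0.059 to 0.154 with 1 library left out (-0.041, -0.024 and -0.059 without wild type replicate 2, null replicate 1 and null replicate 3), and -0.074 with the block without replicate 3. The cause was not tested. The 5 ratios moved by less than their pooled SD under each alternative run, and within replicate numbers the ratio of the pairs gave an exact sign-flip p = 0.25, the smallest 3 pairs allow.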

Other observations

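Over the 6 libraries, the genes whose log2 CPM was most like the mean of Dlx1 and Dlx2, among 10230 genes with a mean of 10 CPM or more, included Gucy1a3, a guanylate cyclase subunit gene (Pearson r = 0.990), and Slc31a1, a copper transporter gene (0.989). Gucy1a3 gave 23.7, 24.6 and 19.8 CPM in wild type libraries against 31.3, 36.1 and 30.5 CPM in null ones, a blocked log2 fold change of 0.55 (edgeR adjusted p = 0.000956). For the mean of Dlx5 and Dlx6 they were Zscan26 (0.993), A730017L22Rik (0.988) and Rnf182 (0.988), none of which was called in either edgeR fit. These are descriptions over 6 libraries that share genotype and replicate structure, chosen as the highest of many.

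In both genotypes replicate 2, which held least pallial RNA, had the highest CPM of Dlx1 and Dlx2 and the lowest of Dlx6. The length behind the deposited FPKM exceeded the span of the gene for 1097 of 21180 genes (5.18%), Dlx1 among them. Orders of FPKM between genes therefore rest on the lengths used.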
